A study of Mus musculus with 6 samples.

Results

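E-cadherin, its 3 catenins and 3 genes of macrophage fusion were followed in tumour-associated macrophages. The 7 genes, picked by symbol, were Cdh1, Ctnna1, Ctnnb1, Ctnnd1, Dcstamp, Ocstamp and Atp6v0d2, out of 55487 genes in the tables. All 7 were high enough to be among the 14140 genes tested. They were picked with results of these libraries already known, among them the difference in Cdh1 between the labels. Their difference between labels is therefore given as a description. Counts of members past a threshold stand beside the share of all genes past it, and nothing is read from them.

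The macrophages came from Lewis lung carcinoma, a transplantable mouse lung cancer line that was injected under the flank skin of C57BL/6 mice. Tumours were taken between day 15 and day 17 and digested with collagenases and DNase, and CD11b-positive cells were enriched on magnetic beads. Cells positive for CD11b and F4/80 but negative for Ly6C and Ly-6G were then sorted into a high and a low gate for surface MHC class II. There were 3 libraries titled MHC-IIhigh and 3 titled MHC-IIlow, numbered 1 to 3 by batch, and no other treatment or genotype is named. The labels used here give neither the age and sex of the mice nor whether animals were pooled, so the spread between libraries may be technical.

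Transcripts of MHC class II went against the titles. H2-Aa, a chain of the I-A molecule, had 4.40, 5.48 and 6.69 CPM (normalised counts, scaled to one library size) in labelled high replicates 1, 2 and 3, against 1377, 1166 and 1506 CPM in the labelled low replicates. Groups are therefore called by their labels, and each direction given refers to the label alone. Reads in genes ranged from 10202879 to 25473051 per library. The lowest total was that of labelled low replicate 3, in which an rRNA copy took 47.3% of the reads in genes, against 3.85% to 13.5% in the other 5 libraries. All 13 listed macrophage markers were tested and none was called by edgeR. At an unadjusted p below 0.05 by edgeR, Lyz2 and Adgre1 were higher in the libraries labelled high (log2 fold changes 0.93 and 0.90). Apoe was lower at that threshold (-1.05). DESeq2 called 2 of the 13, both higher (0.856% of all tested genes), and so did edgeR with each library's trend over GC content taken out. The sum of the 13 was 11470 to 13950 CPM in the labelled high libraries and 8198 to 14940 CPM in the labelled low ones.

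E-cadherin is the adhesion receptor that joins epithelial cells by binding the same protein on a neighbouring cell. Its tail binds p120-catenin, which keeps it at the surface, and beta-catenin, which links it through alpha-catenin to actin. Beta-catenin has a second life as the nuclear effector of Wnt signals. In macrophages E-cadherin is known as a gene induced by interleukin 4 and as a surface protein of Langerhans cells, and it takes part in the fusion of macrophages into multinucleated cells. DC-STAMP and OC-STAMP are multi-pass membrane proteins needed for fusion of osteoclasts and foreign body giant cells, and Atp6v0d2 encodes the d2 subunit of the vacuolar proton pump, which is also needed for fusion.

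Cdh1 was lower in all 3 libraries labelled MHC-II high. It lies on chromosome 8 from 106603351 to 106670246 on the plus strand (GRCm38). It stood at 9.68, 9.53 and 11.7 CPM (174, 214 and 327 reads) in labelled high replicates 1, 2 and 3. In labelled low replicates 1, 2 and 3 it stood at 34.2, 30.1 and 37.5 CPM (642, 736 and 210 reads). The lowest library labelled low was thus well above the highest library labelled high, and the values within a label lay close together. The means were 10.3 ± 1.2 and 33.9 ± 3.7 CPM (SD, n = 3 each), with a log2 fold change of high over low of -1.71 and a standard error of 0.20. This is 3.28-fold more in the libraries labelled low. Within batches 1, 2 and 3 the log2 ratio was -1.82, -1.66 and -1.68. In bulk libraries, fewer cells with a transcript and less of it per cell cannot be told apart.

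Cdh1 was the 1 member of 7 past an adjusted p of 0.05 in edgeR's quasi-likelihood test over all genes. In that test 0.446% of the 14140 genes were called in either direction, 0.354% lower and 0.0919% higher in the libraries labelled high. With the batch as a block 1 member was lower and called (0.283% of all genes). With each library's trend over GC content taken out it was again 1 (1.7% of all genes), and with both it was 2, Cdh1 and Ocstamp (2.68%). DESeq2 called the same pair (1.96%), and 0.856% of all genes higher. For the lists of other genes given with the members, the background at an unadjusted p below 0.05 by edgeR was 7.99% of all tested genes lower and 4.06% higher, so that more genes were lower than higher over the whole table too. The ratio within batches had 1 sign in all 3 batches for 5 members, below 0 for Cdh1, Dcstamp and Ocstamp (19.3% of all genes) and above 0 for Ctnna1 and Atp6v0d2 (20.8%). Removing labelled low replicate 1, or labelled high replicate 1, 2 or 3, ended the call, while its log2 fold change stayed between -1.81 and -1.64.

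**Figure D1:**
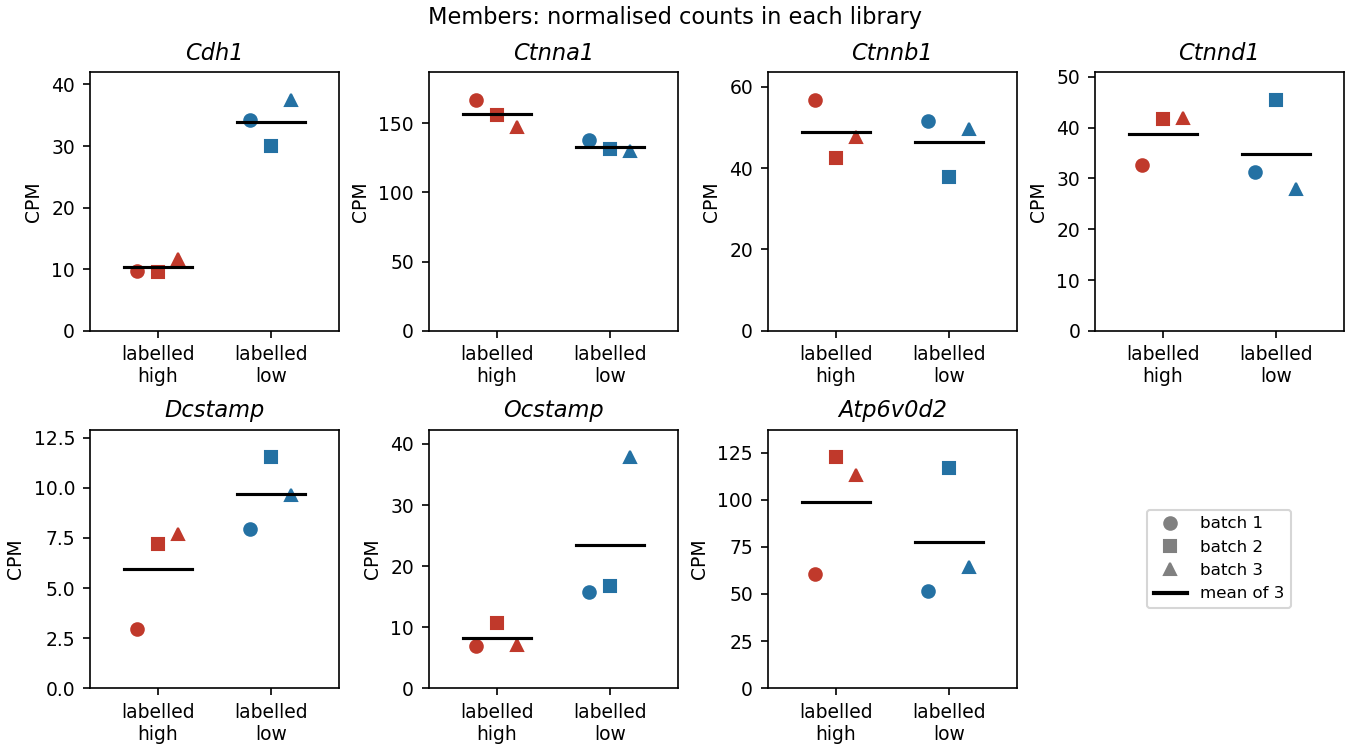
Normalised counts (CPM, linear axes from 0) of the 7 members in each library, with labelled high in red and labelled low in blue, the symbol giving the batch and the bar the mean of 3 libraries. Cdh1 lies between 9.53 and 11.7 CPM in red and between 30.1 and 37.5 CPM in blue, while Ctnnb1, Ctnnd1 and Atp6v0d2 overlap between the labels.

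The catenins lay closer together between the labels, with log2 fold changes from 0.08 to 0.24. Ctnna1, which encodes alpha-catenin (chromosome 18, 35118859 to 35254779), stood at 167, 156 and 147 CPM in labelled high replicates 1, 2 and 3 and at 138, 132 and 130 CPM in labelled low replicates 1, 2 and 3. Its labels did not overlap, but the gap was small. The log2 fold change was 0.24 with a standard error of 0.16, and the ratios within batches were 0.27, 0.25 and 0.18.

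Ctnnb1, which encodes beta-catenin (chromosome 9, 120929216 to 120960507), had 56.7, 42.4 and 47.6 CPM in labelled high replicates 1, 2 and 3 and 51.5, 37.7 and 49.6 CPM in the labelled low replicates. The labels overlapped throughout, and batch 2 held the lowest value of each label. The log2 fold change was 0.08 with a standard error of 0.20. It changed sign without labelled high replicate 1 (-0.016) or without labelled low replicate 2 (-0.018).

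Ctnnd1, which encodes p120-catenin (chromosome 2, 84600071 to 84650765, minus strand), had 32.6, 41.7 and 42.0 CPM in labelled high replicates 1, 2 and 3 and 31.2, 45.4 and 27.8 CPM in the labelled low replicates. Here too the labels overlapped, and labelled low replicate 2 was the highest of the 6 libraries. The log2 fold change was 0.15 with a standard error of 0.23. It was 0.42 without labelled low replicate 2, 0.014 without labelled low replicate 3 and -0.044 without batch 3.

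**Figure D2:**
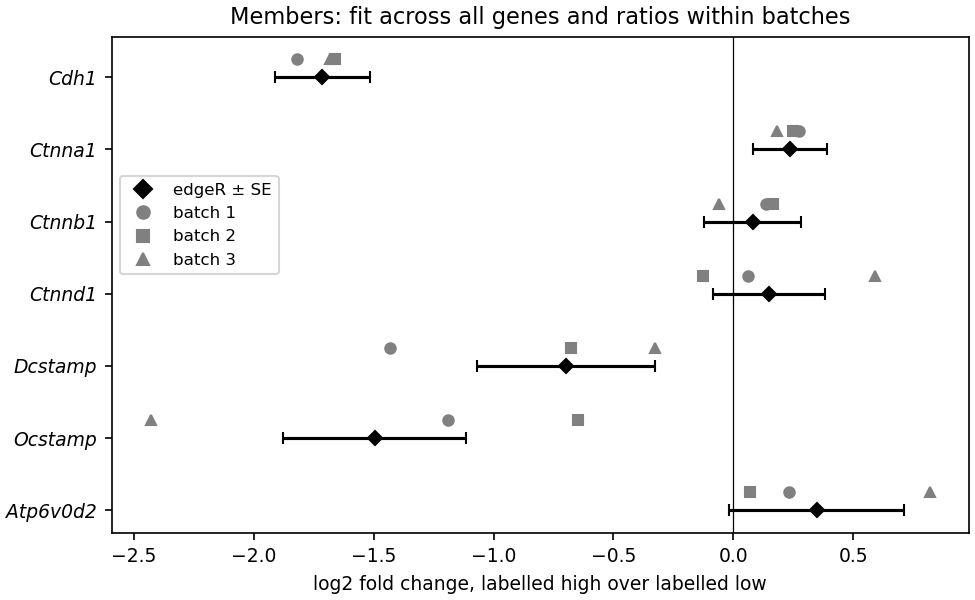
Log2 fold change of the labelled high over the labelled low libraries for the 7 members, with the edgeR estimate and its standard error as a diamond and bar and the ratio within each batch as grey symbols. The 3 batches of Cdh1 lie between -1.82 and -1.66, whereas those of Ocstamp spread from -2.43 to -0.65 and those of the catenins run from -0.12 to 0.59.

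Genes were set side by side per kilobase of exon, with the exons of all annotated transcripts of a gene merged. The transcripts in use may be shorter, so close ranks are uncertain. On this scale Ctnna1 was the highest of the 4 adhesion genes in every library. Its level was 24.4 ± 1.5 CPM per kilobase in the labelled high libraries and 20.7 ± 0.67 in the labelled low ones (SD, n = 3 each). Ctnnb1 followed at 9.42 ± 1.4 and 8.92 ± 1.4 CPM per kilobase. Ctnnd1 stood at 5.29 ± 0.73 and 4.76 ± 1.3 CPM per kilobase, and Cdh1 at 2.25 ± 0.26 and 7.42 ± 0.81. In the libraries labelled high Cdh1 was thus the lowest of the 4. In each library labelled low it was above Ctnnd1, most narrowly in replicate 2, at 6.58 and 6.21 CPM per kilobase. Ctnnb1 was above Cdh1 in every library, most narrowly in labelled low replicate 2, at 7.27 and 6.58 CPM per kilobase.

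The ratio of alpha-catenin to E-cadherin transcripts per kilobase was 12.3, 11.7 and 8.97 in labelled high replicates 1, 2 and 3 and 2.87, 3.11 and 2.46 in the labelled low replicates. For beta-catenin over E-cadherin it was 5.16, 3.91 and 3.59 in the labelled high replicates, against 1.33, 1.10 and 1.17 in the labelled low ones. On this scale beta-catenin thus stood 3.59-fold or more above E-cadherin in each library labelled high and at most 1.33-fold above it in each labelled low. Alpha-catenin over beta-catenin, which does not involve Cdh1, was 2.38, 2.98 and 2.50 in the labelled high replicates, against 2.16, 2.82 and 2.11 in the labelled low ones, with overlap.

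**Figure D3:**
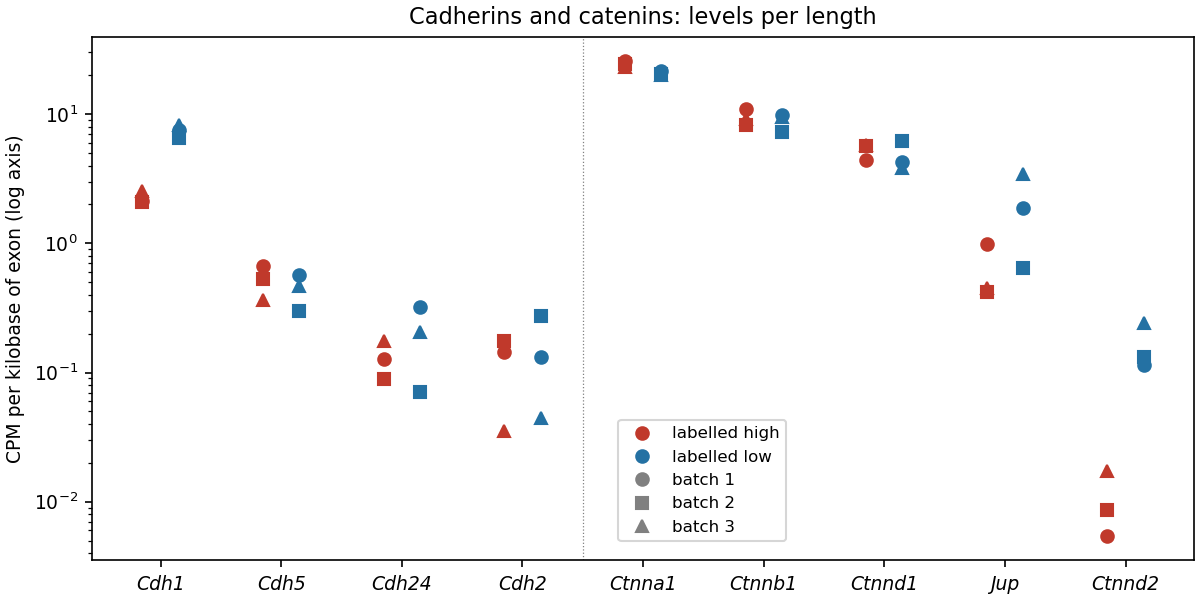
CPM per kilobase of exon on a log axis for 4 cadherins (left of the dotted line) and 5 catenin genes, with labelled high in red, labelled low in blue and the symbol giving the batch. Cdh1 lies at 2.08 to 2.56 in the red points and 6.58 to 8.19 in the blue ones, above the other cadherins in every library.

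Cdh1 held most of the cadherin reads. Of the 22 other cadherins listed, 12 had no read in any library, and 3 were high enough to test. None of the 3 was called by edgeR or DESeq2, and none had an unadjusted p below 0.05. They were Cdh5, Cdh2 and Cdh13. Cdh5, the cadherin of endothelium, had 2.18 ± 0.62 CPM under the high and 1.88 ± 0.57 CPM under the low label. Cdh2, N-cadherin of mesenchymal and neural cells, had 0.960 ± 0.60 and 1.21 ± 0.93 CPM, and Cdh13, a cadherin without a cytoplasmic tail, had 0.677 and 0.844 CPM on average.

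Among relatives of the catenins, Ctnnd2 was lower in the libraries labelled high. Ctnnd2 encodes delta-catenin, a member of the p120 family best known from neurons. It stood at 0.056, 0.089 and 0.179 CPM in labelled high replicates 1, 2 and 3 (8 reads in all) and at 1.17, 1.35 and 2.50 CPM in the labelled low replicates (69 reads in all). The labels did not overlap, at a level far below that of Ctnnd1. By edgeR its log2 fold change was -3.71 (standard error 0.58, adjusted p 0.0438). The adjusted p was 0.0501 with the batch as a block. Over all alternatives it ran from 2.44e-05 to 0.287, and leaving out any library other than labelled low replicate 2 ended the call.

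The other paralogs gave no call in edgeR's test without batch or GC terms. Jup, plakoglobin, which can take the place of beta-catenin, had 4.01 ± 2.1 CPM under the high label, against 12.7 ± 8.9 CPM for the low one, with overlap (log2 fold change -1.64, standard error 0.60, adjusted p 0.378 by edgeR). It was called with the GC trend and the batch in the fit. Ctnna2 had no read and Ctnna3 had 3 reads in the 6 libraries. Of the 25 catenin relatives and junction partners 20 were tested, and edgeR called 1, Ctnnd2. With the batch as a block it called 0. DESeq2 called 3 lower, Ctnnd2, Nectin1 and Nectin4 (1.96% of all tested genes). With the GC trend taken out edgeR called 2 lower, Ctnnd2 and Nectin1 (1.7%). Their median log2 fold change was -0.14, against -0.02 over all tested genes. Nectin4 and Nectin1, immunoglobulin-like adhesion proteins of junctions, had log2 fold changes of -1.31 and -1.54, with adjusted p values of 0.271 and 0.298. Ctnnbip1, an inhibitor of beta-catenin's binding to TCF factors, had one of -0.78 (adjusted p 0.307).

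Genes that act on E-cadherin gave no call in edgeR's test without batch or GC terms. Of the 12 listed receptors and proteases 9 were tested, of which 2 were higher and 3 lower at an unadjusted p below 0.05, and DESeq2 called 0. The receptor genes Klrg1 and Itgae were too low to test. Itgae had 4, 3 and 7 reads in labelled high replicates 1, 2 and 3 and 43, 40 and 1 reads in the labelled low replicates. Itgae was chosen after its values were seen. Adam10, the main sheddase of E-cadherin, stood at 336 ± 45 and 224 ± 60 CPM (log2 fold change 0.58, adjusted p 0.398), and Capn2, a calpain protease, at 280 ± 18 and 197 ± 10.0 CPM (adjusted p 0.299). Capn2 was called higher with the GC trend taken out, alone or with the batch in the fit. Mmp9 and Mmp14, matrix metalloproteinases, had log2 fold changes of -1.27 and -0.69 (adjusted p 0.393 and 0.386).

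Of 16 listed regulators of Cdh1 transcription 10 were tested. None was called by edgeR or DESeq2, and none had an unadjusted p below 0.05. Zeb2, a repressor of Cdh1 in epithelial cells, had 1001 ± 73 and 837 ± 62 CPM in the labelled high and labelled low libraries (adjusted p 0.503, log2 fold change 0.26). Tcf4, which encodes an E-box protein, stood at 134 ± 9.1 and 105 ± 12 CPM (adjusted p 0.441). For both genes the labels did not overlap, with the high label above, as for 1 of the 7 members, Ctnna1, and 10.5% of all tested genes. With the GC trend taken out the log2 fold changes of Zeb2 and Tcf4 were -0.11 and 0.004. Twist1 and Klf8 overlapped between the labels (adjusted p 0.511 and 0.538). Snai1, another repressor of Cdh1 in epithelial cells, was too low to test. It had 1, 5 and 4 reads in labelled high replicates 1, 2 and 3 and 15, 16 and 5 reads in the labelled low replicates. In CPM the labels did not overlap, at 0.056 to 0.223 and 0.654 to 0.892 CPM, with Snai1 lower in the libraries labelled high, the direction of Cdh1. Snai1 was chosen after its values were seen.

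Neither the beta-catenin pathway nor its targets gave a call. Of 25 tested genes of the destruction complex and of Wnt signalling, edgeR and DESeq2 called 0, and the median log2 fold change was -0.38. At an unadjusted p below 0.05 by edgeR, 4 were lower and 0 higher, against 7.99% and 4.06% of all tested genes. Those 4 were Pygo2 and Tcf7l1, nuclear partners of beta-catenin signalling, the co-receptor gene Lrp5 and the kinase gene Gsk3a, with log2 fold changes of -0.80, -1.30, -1.52 and -0.75 and adjusted p values of 0.293, 0.414, 0.367 and 0.408. With each library's trend over GC content taken out, the median was -0.12. Of 14 listed target genes 3 were tested, Znrf3, Ccnd1 and Myc, with log2 fold changes of -0.53, -0.19 and -0.28 and adjusted p values of 0.414, 0.601 and 0.695. None of these 3 had an unadjusted p below 0.05, and DESeq2 called 0.

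Reads of epithelial genes were counted as a check for tumour or epithelial cells in the sort. Which of these genes Lewis lung carcinoma cells express is not given in the sources used here. A lack of reads therefore sets no limit on the share of tumour cells. Epcam, an adhesion protein of epithelium, had 0 reads in the 3 libraries labelled high, which allows up to 0.0439 CPM over them (3 counts, counting error only). Under the low label it had 4 reads, all in replicate 1. Of 29 listed epithelial and tumour cell genes 14 had no read in any library, among them Krt5, Krt17, Cldn3, Cldn4, Cldn7, Esrp1 and Nkx2-1. Dsp, a desmosome gene, and Grhl2, an epithelial transcription factor, had 3 reads each over the 6 libraries. Krt19 had 3 reads, Krt20 had 2 and Krt14 had 1.

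Krt8 and Krt18, keratins of simple epithelium, had reads in all 6 libraries and overlapped between the labels. Krt18 stood at 5.51, 9.36 and 2.18 CPM in labelled high replicates 1, 2 and 3 and at 5.60, 7.81 and 3.03 CPM in the labelled low replicates (log2 fold change 0.005, standard error 0.53). Its partner Krt8 stood at 1.89, 2.76 and 0.822 CPM in the labelled high replicates and 2.56, 3.19 and 0.535 CPM in the labelled low ones (log2 fold change -0.32, standard error 0.59). For both keratins batch 2 was the highest and batch 3 the lowest within each label. For Cdh1 batch 2 was lowest and batch 3 highest within each label, though batches 1 and 2 nearly tied under the high label (9.68 and 9.53 CPM). The Cdh1 values within a label lay close together, and the batch orders were compared after the values were seen, so nothing is read from them. The part of epithelial or tumour cells in the Cdh1 difference was not tested. Krt7 had 13 and 23 reads in the labelled high and labelled low libraries, and Krt10 had 48 and 23.

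The keratin gene Krt80 had the direction of Cdh1. Krt80 stood at 22.6, 19.9 and 14.5 CPM in labelled high replicates 1, 2 and 3 and at 50.6, 24.2 and 60.5 CPM in the labelled low replicates. The labels did not overlap, though labelled low replicate 2 lay close to the highest library labelled high. By edgeR its log2 fold change was -1.24 (standard error 0.34, adjusted p 0.235), and DESeq2 called it. Krt80 held 1258 of the 1813 reads of the 16 listed keratins under the high label and 1880 of 2369 under the low label. It made up most of the summed level of the 29 genes, which was 18.8 to 33.5 CPM in the labelled high libraries and 37.7 to 64.4 CPM in the labelled low ones. The part of Krt80-expressing cells in the Cdh1 difference was not tested.

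**Figure D4:**
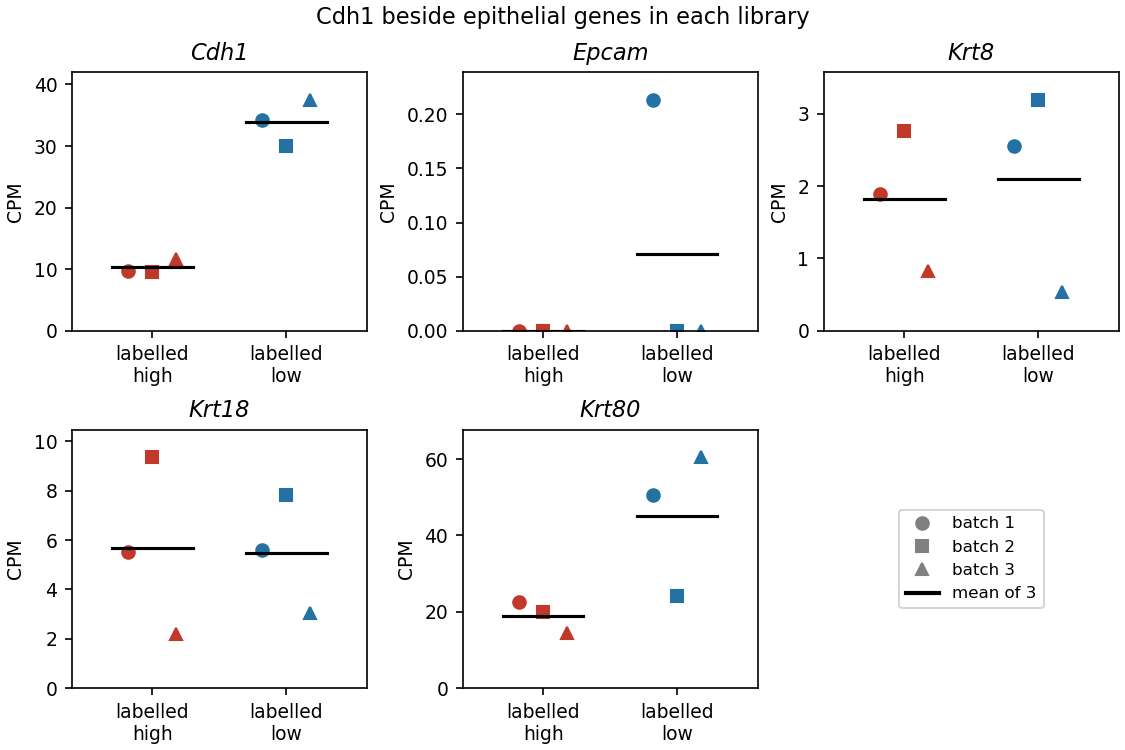
CPM in each library (linear axes from 0) of Cdh1, Epcam and the keratins Krt8, Krt18 and Krt80, with labelled high in red, labelled low in blue, the symbol giving the batch and the bar the mean of 3. Epcam has reads in labelled low replicate 1 alone, Krt8 and Krt18 overlap between the labels with batch 2 highest in each, and Cdh1 and Krt80 are higher under the low label.

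Most tested dendritic cell genes were lower in the libraries labelled high, as Cdh1 was. Of 15 listed markers of dendritic and Langerhans cells 10 were tested. Of these edgeR called 3 lower, Ccr7, Itgax and Flt3 (0.354% of all tested genes), and DESeq2 called 6 lower (1.96%). At an unadjusted p below 0.05 by edgeR, 9 of the 10 were lower and 0 higher, against 7.99% and 4.06% of all tested genes. For 9 of the 10 the labels did not overlap, with the high label lower (9.48% of all tested genes). The median log2 fold change of the 10 was -2.23. The summed level of the 15 was 71.6 to 119.9 CPM in the labelled high libraries and 313 to 440.8 CPM in the labelled low ones, and none of the 15 was at 0 in all libraries. Itgax, which encodes CD11c, had a log2 fold change of -2.31 (standard error 0.31, adjusted p 0.0275). Flt3 and Itgax were no longer called without labelled high replicates 1 or 2 or labelled low replicate 1, Flt3 also without labelled high replicate 3 or batch 3, and Ccr7 without labelled high replicate 2 or batch 3. Cd207, langerin of Langerhans cells, stood at 15.0 and 19.3 CPM on average with overlap (log2 fold change -0.37, adjusted p 0.508). The part of dendritic cells in the Cdh1 difference was not tested. Fibroblast markers, which bear on the catenins since these are made by most adherent cells, summed to 75.1 to 414.7 CPM in the labelled high libraries and 132.8 to 605.3 CPM in the labelled low ones. None of 10 tested was called by edgeR or DESeq2, and 1 had an unadjusted p below 0.05. Endothelial markers summed to 18.2 to 25.2 and 16.0 to 31.6 CPM, and none of 4 tested was called by either tool, with 1 higher and 1 lower at an unadjusted p below 0.05. Lymphocyte markers summed to 0.724 to 1.43 CPM in the labelled high libraries and 2.50 to 2.77 CPM in the labelled low ones, and markers of neutrophils, mast cells and erythroid cells to 4.79 to 8.90 and 1.76 to 5.53 CPM.

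The genes whose levels over the 6 libraries were most like those of Cdh1 came largely from MHC class II. Among 9251 protein-coding genes with at least 5 CPM in a label, the highest Pearson correlation of log2 CPM was that of Acss1, a mitochondrial acetyl-CoA synthetase gene, at 0.999. H2-Aa and H2-Ab1 followed at 0.994, and Ciita and Cd74 at 0.993. Acss1 stood at 9.61 ± 0.76 and 22.6 ± 2.3 CPM under the high and low labels (log2 fold change -1.23, adjusted p 0.0465). The libraries fall into 2 labels that differ in all of these genes, so these correlations largely restate the difference between labels.

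The 2 STAMP genes both stood higher in the libraries labelled low, with wider spread than Cdh1. Ocstamp lies on chromosome 2 from 165393760 to 165400405 on the minus strand. It stood at 6.90, 10.7 and 7.01 CPM (124, 239 and 196 reads) in labelled high replicates 1, 2 and 3. In the labelled low replicates it stood at 15.8, 16.7 and 37.8 CPM (296, 408 and 212 reads). The labels did not overlap, and labelled low replicate 3 stood far above the other 2. The log2 fold change was -1.50 with a standard error of 0.38, and the ratios within batches were -1.19, -0.65 and -2.43. Without labelled low replicate 3, the library rich in rRNA, it was -0.99, and with the GC trend taken out it was -1.17. Ocstamp was not called by edgeR, was called by DESeq2, and was also called with no filter on low counts, with the GC trend and the batch in the fit, and without labelled low replicate 2.

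Dcstamp lies on chromosome 15 from 39745930 to 39760938. It stood at 2.95, 7.22 and 7.69 CPM (53, 162 and 215 reads) in labelled high replicates 1, 2 and 3 and at 7.94, 11.5 and 9.64 CPM (149, 282 and 54 reads) in the labelled low replicates. The labels did not overlap, but labelled high replicate 3 and labelled low replicate 1 were nearly equal. The log2 fold change was -0.70 with a standard error of 0.37, and -0.36 without labelled high replicate 1. Within batches it was -1.43, -0.68 and -0.33. Groups that do not overlap, with the high label lower, were found for 3 of the 7 members, Cdh1, Ocstamp and Dcstamp, and for 9.48% of all tested genes.

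Atp6v0d2 did not part the labels. It lies on chromosome 4 from 19876841 to 19922605 on the minus strand. It stood at 60.6, 122.6 and 113.3 CPM (1088, 2751 and 3170 reads) in labelled high replicates 1, 2 and 3 and at 51.5, 116.9 and 64.2 CPM (967, 2860 and 360 reads) in the labelled low replicates. The labels overlapped, and batch 1 was lowest and batch 2 highest within each label. The log2 fold change was 0.35 with a standard error of 0.36. It was 0.05 with the GC trend taken out. Without labelled low replicate 1, 2 or 3 it was 0.13, 0.81 and 0.23. Without labelled high replicate 1, 2 or 3 it was 0.62, 0.18 and 0.24. Its paralog Atp6v0d1, the d subunit found in most tissues, stood at 73.8 ± 5.2 and 84.2 ± 21 CPM (log2 fold change -0.19, adjusted p 0.657).

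Per kilobase of exon, Atp6v0d2 was far above the STAMP genes. It stood at 36.4 ± 12 and 28.6 ± 13 CPM per kilobase under the high and low labels, against 2.24 ± 0.98 and 3.64 ± 0.67 for Dcstamp and 2.24 ± 0.58 and 6.41 ± 3.4 for Ocstamp (SD, n = 3 each). The ratio of the widespread d1 to the d2 subunit ran from 0.870 to 2.00 in the labelled high libraries and from 0.829 to 2.51 in the labelled low ones. It was below 1 in both libraries of batch 2 and in labelled high replicate 3, where d2 stood above d1 per kilobase of merged exons.

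The other subunits of the proton pump gave no call. Of the 24 other V-ATPase genes 18 were tested, none was called by edgeR or DESeq2, and 1 was higher and 0 lower at an unadjusted p below 0.05. The median log2 fold change was 0.004. Atp6v1a, the catalytic subunit, stood at 359 ± 16 and 242 ± 55 CPM (log2 fold change 0.57, adjusted p 0.382), and Atp6v0b, Atp6v1d and Atp6v1h had log2 fold changes of -0.61, 0.44 and 0.47 (adjusted p 0.42, 0.431 and 0.455).

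Fusion partners gave no call in edgeR's test without batch or GC terms. Of 29 listed genes 28 were tested, with a median log2 fold change of 0.02. At an unadjusted p below 0.05 by edgeR, 5 were higher and 4 lower, against 4.06% and 7.99% of all tested genes. DESeq2 called 4 higher and 1 lower, against 0.856% and 1.96% of all tested genes. Cd36, a scavenger receptor that takes part in macrophage fusion, stood at 172 ± 21 and 52.9 ± 20 CPM (adjusted p 0.0655, log2 fold change 1.69). Ccl2, a chemokine that promotes giant cell formation, stood at 157 ± 9.7 and 84.4 ± 7.7 CPM (adjusted p 0.0824). Adam9, a membrane metalloproteinase, and Spp1, osteopontin, had log2 fold changes of 0.72 and 0.74 (adjusted p 0.214 and 0.218). For these 4 the labelled high libraries were all above the labelled low ones, the opposite direction to the STAMP genes. With the GC trend taken out edgeR called Cd36 and Adam9 higher and Ccr2 lower. Ccr2, the receptor of Ccl2, had 160, 229 and 246 CPM in labelled high replicates 1, 2 and 3 and 515, 763 and 286 CPM in the labelled low replicates, without overlap (log2 fold change -1.30, adjusted p 0.219 without the GC term). Ccr2 was chosen after its values were seen.

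Osteoclast genes gave no call by edgeR in 26 tested. At an unadjusted p below 0.05 by edgeR, 2 were higher and 6 lower, against 4.06% and 7.99% of all tested genes. DESeq2 called 0 higher and 1 lower, against 0.856% and 1.96% of all tested genes. With the GC trend and the batch in the fit edgeR called Acp5 and Prdm1 lower and Ctsk higher. The median log2 fold change was -0.42, and -0.18 with the GC trend taken out. Nfatc1, the transcription factor that drives osteoclast formation and the transcription of both Dcstamp and Atp6v0d2, stood at 60.4, 52.8 and 50.7 CPM in labelled high replicates 1, 2 and 3 and at 79.1, 61.9 and 210.8 CPM in the labelled low replicates. The labels did not overlap, and labelled low replicate 3 was the highest by far (log2 fold change -1.10, standard error 0.42, adjusted p 0.388). That library was also the highest for Ocstamp, Acp5 and Src. With the GC trend taken out the log2 fold change of Nfatc1 was -0.72 (adjusted p 0.252 by edgeR). Acp5, tartrate-resistant acid phosphatase, stood at 239 ± 71 and 495 ± 197 CPM (adjusted p 0.291), and Src, a kinase needed for bone resorption, at 15.4 ± 4.5 and 39.4 ± 23 CPM (adjusted p 0.281). Of the 26 genes 3 (11.5%) were at least 2-fold higher in batch 2 than in batch 1 under both labels, as was Atp6v0d2 among the members, against 0.672% of all tested genes. Both this threshold and the batches compared were chosen after the values were seen, so nothing is read from these shares. Repressors of osteoclast fusion gave no call in 6 tested by either tool and none at an unadjusted p below 0.05. Among them Id2, Irf8 and Rbpj had log2 fold changes of 0.41, -0.46 and 0.33 (adjusted p 0.418, 0.451 and 0.482).

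Genes of the response to interleukin 4, the cytokine that drives E-cadherin and fusion in macrophages, gave calls in 1 direction in edgeR's test without batch or GC terms. Of 27 tested 3 were called lower in the libraries labelled high and 0 higher, against 0.354% and 0.0919% of all tested genes. At an unadjusted p below 0.05 by edgeR, 14 were lower and 2 higher, against 7.99% and 4.06%. DESeq2 called 7 lower and 2 higher, against 1.96% and 0.856%. With the GC trend taken out edgeR called 7 lower and 2 higher, against 240 (1.7%) lower and 124 higher among 14123 genes. The median log2 fold change was -0.79, and -0.36 with the GC trend taken out. Retnla, which encodes RELM-alpha, had a log2 fold change of -6.15 (standard error 0.43, adjusted p 0.000731), the chemokine gene Ccl22 one of -4.36 (standard error 0.28, adjusted p 0.000577) and the lectin gene Mgl2 one of -3.39 (standard error 0.43, adjusted p 0.0217). These 3 were already known from these libraries. Mgl2 was no longer called without labelled high replicates 1 or 2 or labelled low replicate 1. Irf4, a transcription factor of the response, stood at 4.01 ± 1.3 and 14.0 ± 4.3 CPM (adjusted p 0.0784). The receptor chain gene Il4ra stood at 169 ± 38 and 299 ± 125 CPM with overlap (adjusted p 0.398). The signal transducer Stat6 stood at 216 ± 29 and 216 ± 42 CPM, with a log2 fold change of -0.001 (standard error 0.21). Arg1, arginase, went the other way, at 1706 ± 80 and 908 ± 86 CPM (adjusted p 0.0966, from 6.64e-05 to 0.617 over the alternatives). Ch25h did so too, at 9.77 ± 2.6 and 2.80 ± 1.3 CPM without overlap (log2 fold change 1.83, adjusted p 0.144 by edgeR). DESeq2, and edgeR with the GC trend taken out, called these 2 higher. Mrc1 and Il13ra1 overlapped (log2 fold changes 0.07 and -0.06). Il4ra, Stat6, Arg1, Ch25h, Mrc1 and Il13ra1 were chosen after their values were seen. The listed dendritic cell genes were also lower in the libraries labelled high (median -2.23), and their part here was not tested.

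**Figure D5:**
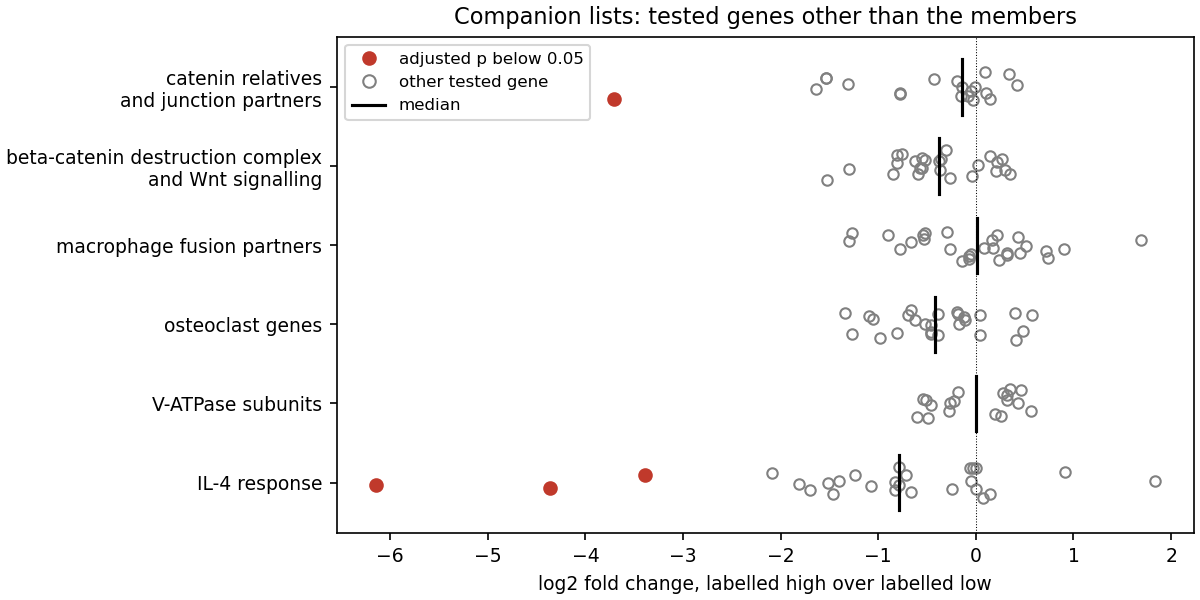
Log2 fold change (labelled high over labelled low) of the tested genes of 6 companion lists, without the members, with genes past an adjusted p of 0.05 filled in red, other genes as open circles and the median as a bar. The called genes are Ctnnd2 in the catenin relatives and Retnla, Ccl22 and Mgl2 in the interleukin 4 list, and the medians run from -0.79 to 0.02.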

How the data were processed

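Total RNA of sorted macrophages was depleted of rRNA and sequenced from stranded libraries, per the labels' protocols. For each library the authors deposited a table of raw read counts over Ensembl genes. STAR, HTSeq, Trimmomatic, FastQC and DESeq2 are named without versions in the submitters' processing notes, with the build GRCm38. How strand was treated in counting, and with which annotation release, is not given in the sources used here, so reads from antisense genes cannot be told apart. Ctnna1, Ctnnb1 and Ctnnd1 share exon positions with other genes, of which Ulk4, opposite Ctnnb1, had the most reads (11 to 46 a library). The 5 summary lines, 44.3% to 67.1% of the listed reads, stayed out.

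Symbols, positions and exon lengths came from GENCODE M21 (GRCm38), which matched 55227 of 55487 genes. Counts were fitted with edgeR 4.0.16 under R 4.3.3 (scaling by TMM, default filter on low counts, quasi-likelihood test, Benjamini-Hochberg adjustment, calls at 0.05), checked on simulated data. Calls by edgeR are from the fit without batch or GC terms unless these are named. CPM uses TMM-scaled library sizes. The standard error came from the log2 fold change and its F statistic. The labels give each replicate number as a batch, which pairs the libraries. Deviations from the label means correlated within batches 1, 2 and 3 at 0.159, 0.335 and -0.116. Alternatives were RLE factors, total counts, DESeq2 1.42.0, no filter, a batch block, no rRNA or mitochondrial genes, a GC offset (local regression of log2 CPM on the GC content of the longest transcript, span 0.4), and leaving out libraries or batch 3.

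The members, lists and alternatives were chosen with earlier results of these data known. Named were the members, their paralogs, keratins with a read, up to 4 genes per list by the smallest p at 1 CPM or more in the higher label, and the 5 genes most like Cdh1, Dcstamp, Ocstamp and Atp6v0d2 at 5 CPM or more. Genes outside this rule were chosen after their values were seen. One gene that the rule names is not reported here.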

Additional observations from a re-analysis of the deposited data

How the results depend on the processing

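The counts of called genes moved with the setting. Against 13 higher and 50 lower genes, edgeR gave 8 higher with total counts. DESeq2 gave 121 higher and 277 lower, no filter 113 and 436, the GC offset 124 and 240, and the GC offset with the block 172 and 378. With the batch as a block alone 1 gene was higher and 40 were lower, and without batch 3 the counts were 0 and 28. Leaving out 1 library gave 0 to 246 higher and 8 to 784 lower genes, both highest without labelled low replicate 2. The block changed no call of a member, and it ended that of Ctnnd2.

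Cdh1 kept its direction in all 15 alternatives. It was not called with total counts (-1.40), which moved the median of all genes to 0.25, or without batch 3 (-1.74), and leaving out 1 library gave -1.81 to -1.64. Ctnnb1 changed sign without labelled low replicate 2 (-0.018) and without labelled high replicate 1 (-0.016), with up to 0.20 without another library, and Ctnnd1 without batch 3 (-0.044), each far within its standard error. Ctnna1, Dcstamp, Ocstamp and Atp6v0d2 kept their direction in all 15. Ocstamp passed the threshold in 4 of them, by DESeq2, without the filter, with the GC offset and block, and without labelled low replicate 2, and its log2 fold change was -0.88 without batch 3. The causes were not tested. Depth limits Dcstamp most, with 53 and 54 reads in labelled high replicate 1 and labelled low replicate 3.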

Other observations

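Atp6v0d2 and some osteoclast genes stood higher in batch 2 than in batch 1 under both labels. Atp6v0d2 was 2.02-fold higher in batch 2 than in batch 1 under the high label and 2.27-fold higher under the low label. Of 26 tested osteoclast genes 3 were at least 2-fold higher in batch 2 under both labels (11.5%), against 0.672% of all tested genes. Both the threshold and the batches compared were chosen after the values were seen, so nothing is read from these shares. The 3 genes were Ctsk, the collagen-degrading protease cathepsin K (2.42-fold and 2.30-fold), Oscar, an osteoclast receptor (2.18-fold and 3.12-fold), and Siglec15, a lectin of fusing osteoclasts (6.14-fold and 2.63-fold, from 45 and 35 reads in all). Batch 3 over batch 1 gave 1.87 and 1.25 for Atp6v0d2, 1.69 and 1.28 for Ctsk, 1.31 and 4.24 for Oscar and 4.07 and 1.91 for Siglec15. In batch 2 over batch 1 Dcstamp was 2.45-fold and 1.45-fold higher, and Ocstamp 1.54-fold and 1.06-fold. Cdh1, Ctnna1 and Ctnnb1 stood at 0.985 and 0.88, 0.936 and 0.953, and 0.747 and 0.732 of their batch 1 level. What the batches differ in is not given in the sources used here.

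The genes most like the fusion genes over the 6 libraries were others than for Cdh1. For Dcstamp the highest Pearson correlation of log2 CPM among 9251 protein-coding genes was that of Prdm1 (0.976), which encodes Blimp-1, a repressor that permits osteoclast formation. Ubxn8, Gm14548, Zdhhc3 and Chchd2 followed (0.96 to 0.974). For Ocstamp they were Spns2, Emd, Rusc1, Traf1 and Bloc1s3 (0.988 to 0.994), all of them highest on average under the low label. For Atp6v0d2 they were Sgo1, Parp6, Cep70, Aspm and Bbip1 (0.986 to 0.994), among which Sgo1 and Aspm act in mitosis. The libraries share batches and differ in rRNA content and GC trend, so these values describe 6 libraries.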
